A study of Mus musculus with 19 samples.

Results

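Kidney RNA of hypertensive BPH/2J mice was compared between animals given Cmpd17b and animals given vehicle. The comparison rests on 9 of the 19 kidney libraries of the study, 4 from treated and 5 from vehicle mice, with 1 library per mouse per the labels. Treated mice received Cmpd17b, a small-molecule agonist of formylpeptide receptors, by intraperitoneal injection at 50 mg/kg/day for 28 days. Vehicle mice are labelled as given vehicle over the same time, and what the vehicle was made of is not given in the sources used here. All 9 mice were of the inbred strain BPH/2J, with no engineered allele named in the labels, and share batch label 2. The labels give neither the age nor the sex of the mice. Another treated library, BPH/2J Cmpd17b replicate 1, was left out because it held a heart profile, and 241 genes enriched in that library were set aside from every test. The libraries that remained were treated replicates 2 to 5 and vehicle replicates 1 to 5, and the mice are called by those numbers below. Normotensive BPN/3J mice given the same dose (n = 5) or vehicle (n = 4) are used where the strains are set side by side.

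BPH/2J mice were bred by selection for high blood pressure and are a model in which hypertension is linked to an overactive sympathetic nervous system. Formylpeptide receptors are G protein-coupled receptors, found mostly on neutrophils and macrophages, that bind bacterial and mitochondrial formylated peptides as well as annexin A1 and lipid mediators, and they can drive inflammation or its resolution. In the hypertensive kidney the processes most often described are release of renin, sodium reabsorption along the tubule, entry of immune cells and deposition of matrix around vessels and tubules. The gene groups below follow that order. The study's design names structural remodelling of the kidney as one of its readouts, and the comparison asks whether kidney transcripts differ after the treatment.

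Total counts were 21400111 to 28961333 in treated and 25840891 to 33616451 in vehicle libraries, with means of 25996832 ± 3409691 in treated (SD, n = 4) and 30783483 ± 2912844 in vehicle libraries (SD, n = 5). The difference in depth had an exact two-sided permutation p of 0.0476, and 0.190 when adjusted over the 4 library measures tested, where the smallest p that 4 against 5 libraries allow is 0.0159. Kidney identity was clear in all 9 libraries: the 22 proximal tubule genes summed to 47615 to 77808 CPM in treated mice and 47374 to 92169 CPM in vehicle mice, against 281 CPM in the library that was left out. CPM are the counts of a gene relative to the total of its library, here after TMM scaling except in the left-out library. A single gene, Kap, described below, held much of the proximal tubule sum. Treated mouse 5 stood apart on the first principal component of the 500 most variable genes, which held 63.3% of their variance, and vehicle mouse 4 on the second, which held 13.3%. Treated mouse 5 also had the highest level of the 9 libraries in 4000 of 16245 tested genes. Library numbers run in blocks by group, so an effect of library order cannot be told apart from the treatment. Values are from whole kidney RNA, in which fewer cells of a type and less RNA per cell cannot be told apart.

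No gene passed the test. Of 16245 genes tested with edgeR's quasi-likelihood test, 0 were called at an adjusted p under 0.05 (0% of the genes tested), and the smallest adjusted p was 0.999977. An unadjusted p under 0.05 was found for 555 genes, or 3.42%, of which 170 (1.05%) had higher and 385 (2.37%) lower means in treated mice. That number was 1287 without treated mouse 5, 831 without vehicle mouse 1 and 457 to 666 without any other 1 mouse. limma-voom called 0 genes, with 419 at an unadjusted p under 0.05. DESeq2 called 1, Sagsin1, which was named after its values had been seen: it was at 0, 0, 0 and 0 CPM in the 4 treated mice and at 10.6, 0, 0, 0 and 6.97 CPM in vehicle mice 1 to 5, so that 3 vehicle mice also had none. In 112 genes (0.689%) the treated and vehicle ranges were apart, with treated mice above vehicle mice in 36 (0.222%) and below them in 76 (0.468%). The median 95% confidence interval reached 0.42 to either side of the log2 fold change, a 1.34-fold change, and 0.35, or 1.27-fold, for the 12322 genes whose log2 CPM averaged 1 or more. In 94.1% of those genes the whole interval lay within a 2-fold change in either direction, and in 76.6% of all tested genes. Changes smaller than these widths were not resolved in most genes with 4 and 5 mice. The intervals rest on a spread estimated jointly with the BPN/3J libraries. A fit of the compared groups alone gave 220 genes at an edgeR unadjusted p under 0.05, against 555, and its intervals are not reported here.

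**Figure D1:**
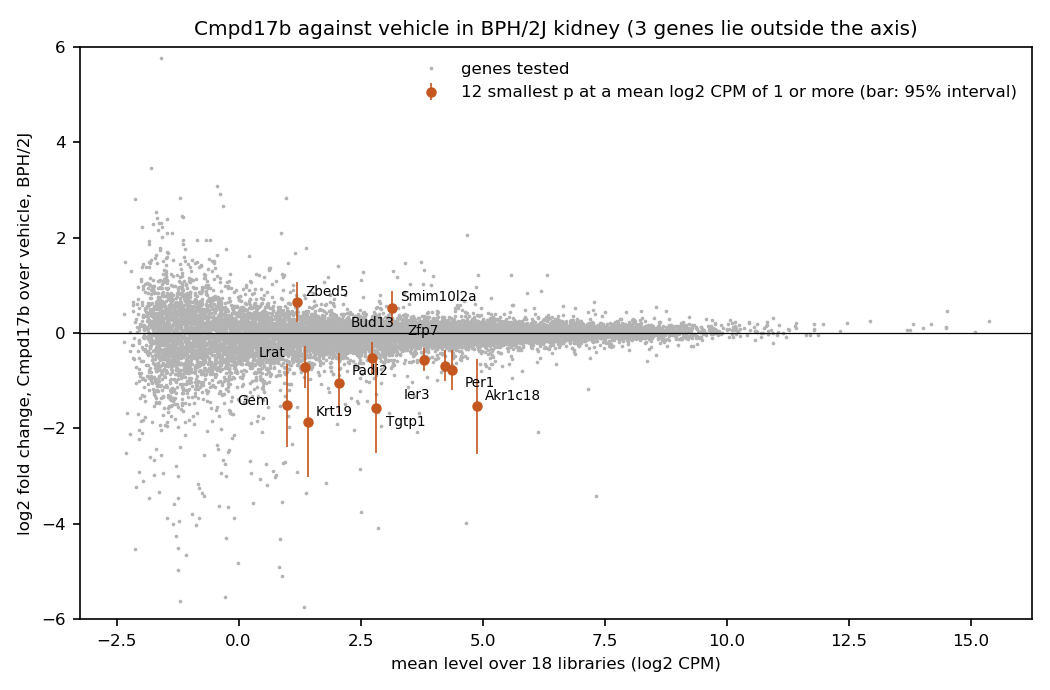
Log2 fold change of Cmpd17b over vehicle in BPH/2J kidney (y axis) against the mean level over 18 libraries in log2 CPM (x axis). Each grey point is 1 of 16245 tested genes. Orange points with 95% intervals are the 12 genes with the smallest p among those with an established symbol and a mean log2 CPM of 1 or more. Of these 12, 10 lie below 0.

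The 12 genes with the smallest p, among genes that have an established symbol and whose log2 CPM averaged 1 or more, are described next, without a claim that they changed. In Zfp7, which encodes a zinc finger protein, levels were 12.5, 11.3, 12.6 and 10.5 CPM in treated mice 2 to 5 and 15.6, 15.2, 16.7, 20.8 and 18.2 CPM in vehicle mice 1 to 5. All 4 treated mice lay below all 5 vehicle mice, and the values within a group were close together. For Zfp7 the log2 fold change was -0.56 (95% interval -0.80 to -0.32, edgeR unadjusted p 0.000125), and DESeq2 gave it an adjusted p of 0.112. Ier3, an immediate early gene induced by stress and growth signals, was at 13.2, 15.6, 18.1 and 11.9 CPM in treated mice, against 19.2, 25.6, 28.5, 23.7 and 21.1 CPM in vehicle mice. Again no treated mouse reached the lowest vehicle mouse, with a log2 fold change of -0.68 (95% interval -1.01 to -0.35, edgeR unadjusted p 0.000365). Per1, a repressor of the circadian clock, was at 12.3, 15.4, 15.4 and 17.9 CPM in treated mice and 25.5, 18.8, 19.95, 30.1 and 36 CPM in vehicle mice. Its ranges were apart as well, although vehicle mouse 2 at 18.8 CPM stood close to treated mouse 5 at 17.9 CPM. Per1 had a log2 fold change of -0.77 (95% interval -1.20 to -0.35, edgeR unadjusted p 0.00132).

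Of the other 9 genes, 2 more had groups that did not overlap. Lrat, whose enzyme makes retinyl esters for vitamin A storage, was at 2.35, 1.33, 2.03 and 0.927 CPM in treated mice and at 2.84, 2.52, 2.61, 2.96 and 2.81 CPM in vehicle mice. The vehicle values were within a narrow band, and the treated values spread below it, with a log2 fold change of -0.71 (95% interval -1.16 to -0.27). Smim10l2a, which encodes a small integral membrane protein, was at 11.8, 10.3, 12.6 and 13.8 CPM in treated mice and 8.05, 10.2, 9.03, 7.07 and 7.57 CPM in vehicle mice. Here every treated mouse was above every vehicle mouse, and the log2 fold change was 0.53 (95% interval 0.19 to 0.87). Zbed5, a zinc finger gene, had a log2 fold change of 0.65 with treated mouse 2 at 2.05 CPM inside the vehicle range, and Bud13, which encodes a splicing factor, one of -0.53 with treated mouse 3 at 6.40 CPM inside the vehicle range. Padi2, which encodes an enzyme that converts arginine to citrulline, had a log2 fold change of -1.05 and overlapping groups.

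In the remaining 4 genes of the 12, 1 or 2 vehicle mice held much of the difference. Gem, a small GTP-binding protein that restrains calcium channels, was at 0.905, 1.14, 1.33 and 1.39 CPM in treated mice, against 1.97, 3.37, 1.16, 7.91 and 2.42 CPM in vehicle mice, with vehicle mouse 4 far above the rest. Krt19, a keratin of ducts and injured tubules, was at 0.704, 1.4, 1.48 and 1.74 CPM in treated mice and 1.72, 3.73, 2.09, 14.1 and 2.29 CPM in vehicle mice. Vehicle mouse 4 again stood apart, and vehicle mouse 1 at 1.72 CPM was below treated mouse 5 at 1.74 CPM. Akr1c18, an enzyme that inactivates progesterone, was at 2.05, 2.99, 2.65 and 1.97 CPM in treated mice, against 2.78, 3.67, 4.03, 8.73 and 16.4 CPM in vehicle mice, highest in vehicle mouse 5 and next in vehicle mouse 4. Tgtp1, a GTPase induced by interferon gamma, was at 2.05, 2.05, 2.19 and 3.65 CPM in treated mice and 1.997, 9.59, 5.18, 3.94 and 15.8 CPM in vehicle mice, highest in vehicle mice 5 and 2. Tgtp1 has a near-identical copy in the mouse genome, reads may have been divided between them, and its level is uncertain. Log2 fold changes of these 4 genes ran from -1.86 for Krt19 to -1.51 for Gem.

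**Figure D2:**
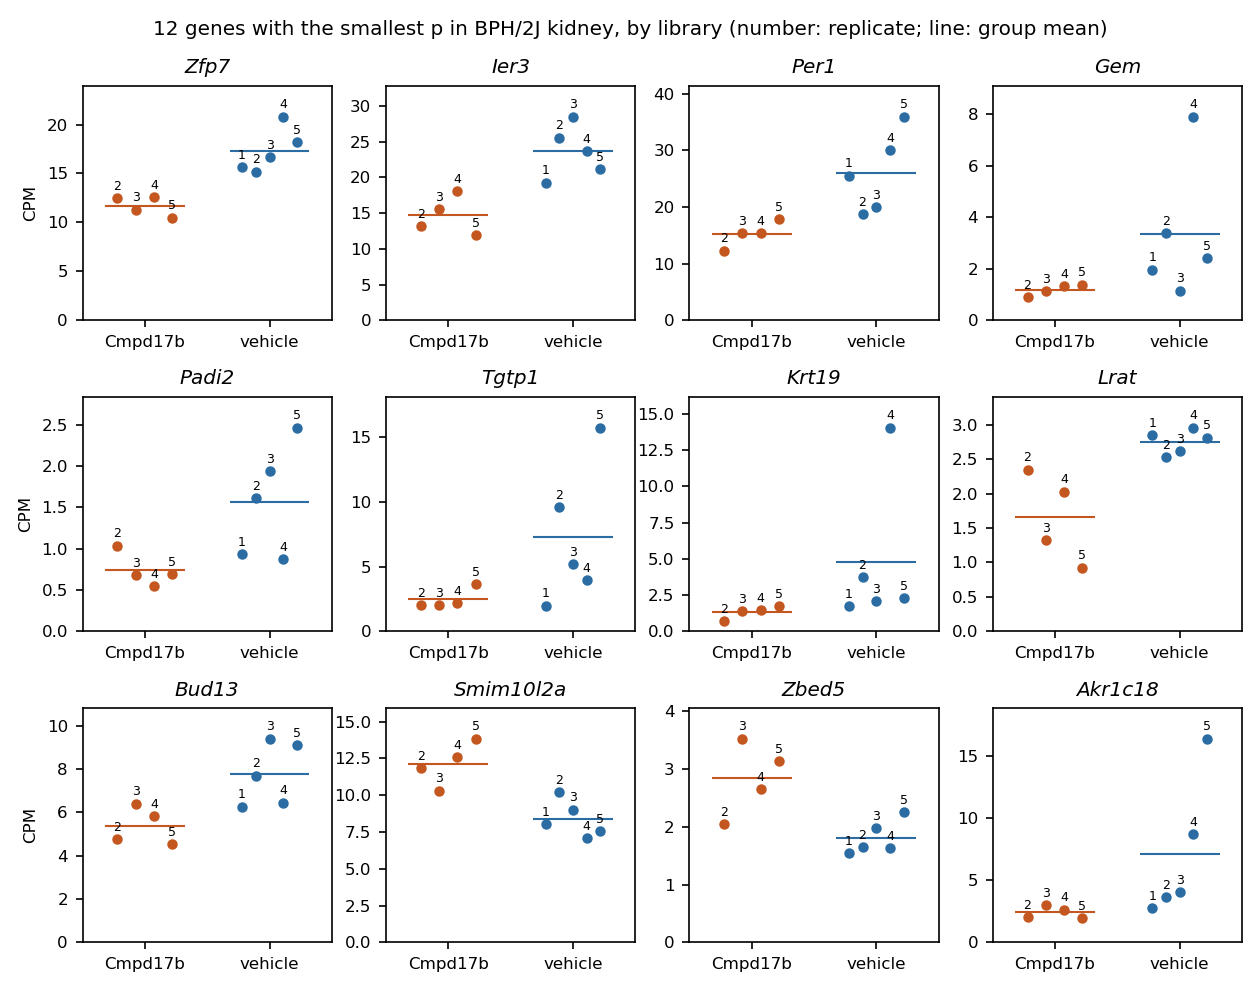
Level in CPM (y axis) of each of the 12 genes with the smallest p in treated (left, orange) and vehicle (right, blue) BPH/2J mice, 1 panel per gene. Points are mice with their replicate number, lines are group means. Ranges were apart for Zfp7, Ier3, Per1, Lrat and Smim10l2a, and vehicle mouse 4 carried the highest value of Gem and Krt19.

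The receptors on which Cmpd17b acts were close to the limit of detection. Fpr1 was at 0, 0.0379, 0.078 and 0 CPM in treated mice, against 0, 0.088, 0, 0.0563 and 0.0865 CPM in vehicle mice, and Fpr2 at 0, 0.0379, 0 and 0.405 CPM in treated mice and 0.0303, 0.117, 0, 0 and 0.173 CPM in vehicle mice. Both were below the filter on low counts and were not tested, and treated mouse 5 held the highest Fpr2 value. Of 12 genes listed as formylpeptide receptors and ligands, 5 were tested, 0 were called, and the median log2 fold change was -0.19 where that of all tested genes was -0.01. The median of the 5 was -0.33 without vehicle mouse 1 and turned to 0.04 without vehicle mouse 2. Anxa1, which encodes the ligand annexin A1, was at 8.62, 7.2, 9.25 and 8.63 CPM in treated mice, against 5.84, 15.4, 7.24, 11.5 and 8.05 CPM in vehicle mice. Its groups overlapped (log2 fold change -0.19, 95% interval -0.70 to 0.32), and vehicle mice 2 and 4 were the highest. Anxa2, a relative of annexin A1, also had its highest values in vehicle mice 4 and 2, at 86.8 and 54.1 CPM, against 33.0 to 41.5 CPM in treated mice. Alox5, the lipoxygenase that begins leukotriene and lipoxin synthesis, was at 0.402, 0.417, 0.39 and 0.753 CPM in treated mice and 0.242, 0.235, 0.41, 0.31 and 0.26 CPM in vehicle mice, with treated mouse 5 apart from the rest (log2 fold change 0.72, 95% interval -0.20 to 1.65).

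Genes of the renin-angiotensin-aldosterone system gave no call. Of 14 listed genes 11 were tested, 9 had a log2 fold change above 0, against 48.6% of all tested genes, and the median was 0.06. Without treated mouse 2, 5 of the 11 were above 0 and the sign of the median turned. Ren1, which encodes renin, was at 88.6, 83.9, 89.4 and 174 CPM in treated mice, against 89.3, 71.8, 83.6, 31.5 and 104 CPM in vehicle mice. Treated mouse 5 was far above the other treated mice and vehicle mouse 4 was the lowest, while the other 7 mice lay between 71.8 and 104 CPM. The log2 fold change of Ren1 was 0.52 (95% interval -0.08 to 1.13), and 0.20 without treated mouse 5. Agtr1a, the main angiotensin II receptor, was at 38.3, 31.5, 41.5 and 27.2 CPM in treated mice and 30.2, 35, 27.9, 21.1 and 28.9 CPM in vehicle mice, with overlapping ranges and a log2 fold change of 0.28 (95% interval -0.03 to 0.58). Ace, which makes angiotensin II, averaged 194 ± 40.5 CPM in treated mice, against 187 ± 39.6 CPM in vehicle mice (SD, n = 4 and 5). Its log2 fold change had a 95% interval of -0.38 to 0.49. Hsd11b2, which shields the mineralocorticoid receptor from glucocorticoids, had a log2 fold change of 0.06 (95% interval -0.22 to 0.35).

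Adrenergic and catecholamine genes were split in direction, with 7 of 13 tested members above 0 and a median of 0.05, which ran from -0.05 to 0.16 when 1 mouse was left out. Adra1a, an alpha-1 adrenergic receptor that constricts renal vessels, was at 29, 22.4, 26.1 and 18 CPM in treated mice and 22.3, 17.5, 14.7, 13 and 15.7 CPM in vehicle mice. Treated mice 2 and 4 and, narrowly, treated mouse 3 exceeded the highest vehicle mouse, while treated mouse 5 lay inside the vehicle range. The log2 fold change was 0.52 (95% interval 0.18 to 0.87, edgeR unadjusted p 0.00529), with edgeR's adjusted p again near 1. Adra2b, an alpha-2 receptor, averaged 63.9 ± 6.92 CPM in treated mice, against 71.2 ± 10.2 CPM in vehicle mice (SD, n = 4 and 5). Adrb3, a fat cell receptor, was at 0, 0.0379, 0 and 0 CPM in treated mice, against 0.0908, 0.117, 0.112, 2.73 and 0.13 CPM in vehicle mice. Its difference rested mostly on vehicle mouse 4, which was also the highest in 12 of 13 fat cell genes.

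The median log2 fold change of sodium transport genes was 0.05, and the interval lay within a 2-fold change for 18 of 20. Sgk1, the aldosterone-induced kinase that keeps the epithelial sodium channel at the membrane, was at 23.9, 23.8, 31.2 and 24.4 CPM in treated mice and 31, 35.9, 34.3, 51.4 and 50.4 CPM in vehicle mice. Treated mouse 4 was just above the lowest vehicle mouse and the other 3 treated mice were below all vehicle mice. For Sgk1 the log2 fold change was -0.65 (95% interval -1.09 to -0.22, edgeR unadjusted p 0.00554). Stk39, a kinase that activates sodium-chloride cotransport, averaged 28.2 ± 2.69 CPM in treated mice, against 33.6 ± 9.08 CPM in vehicle mice (SD, n = 4 and 5). Fxyd2, the gamma subunit of the sodium pump, had a log2 fold change of -0.01 (95% interval -0.59 to 0.57). The nitric oxide and endothelin list had 6 of 14 tested members above 0, with Nos3, the endothelial nitric oxide synthase, at -0.11 and Edn1, which encodes endothelin-1, at -0.56. The NADPH oxidase list had 4 of 9 above 0, with Nox4, the tubular isoform, at 0.30 and Cybb, the phagocyte isoform, at -0.36. No member of any of these lists was called.

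Matrix genes leaned to lower values in treated mice, and the lean depended on single mice. Of 30 tested genes of fibrillar and basement membrane matrix, 26 had a log2 fold change below 0, against 51.4% of all tested genes, the median was -0.13 and 0 were called. Without vehicle mouse 2, which held the highest level of 14 of the 30, 15 were below 0 and the median was -0.0022. Without treated mouse 3, 17 were below 0 and the median was -0.05. Without treated mouse 5, which was highest in 10, the median was -0.40. Col1a1, a chain of type I collagen, was at 5.97, 5.08, 6.71 and 9.5 CPM in treated mice, against 4.21, 25, 6.19, 6.65 and 3.89 CPM in vehicle mice. Col3a1, the chain of type III collagen, was at 12.2, 8.11, 10.3 and 17 CPM in treated mice and 6.72, 46.5, 12.4, 14.2 and 10.7 CPM in vehicle mice. In both genes vehicle mouse 2 was far above the other 8 mice, whose ranges overlapped. The log2 fold change was -0.44 for Col1a1 and 0.37 without vehicle mouse 2, and -0.61 for Col3a1 and 0.11 without it. Fn1, which encodes fibronectin, was at 27.5, 21.6, 17.4 and 47.3 CPM in treated mice, against 13.8, 47.7, 30.8, 21.2 and 25.5 CPM in vehicle mice, with a log2 fold change of 0.03 (95% interval -0.65 to 0.71). Col4a1, a basement membrane collagen, had a log2 fold change of -0.12 (95% interval -0.37 to 0.13) and Sparc, a collagen-binding protein, of -0.23 (95% interval -0.68 to 0.22). Dcn, the proteoglycan decorin, was at 15.8, 11.1, 14 and 22.2 CPM in treated mice and 12.9, 22.8, 24, 43.2 and 17 CPM in vehicle mice, and Col5a2, a chain of type V collagen, had a log2 fold change of -0.34 (95% interval -0.74 to 0.07).

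Among profibrotic signalling and matrix turnover genes, 16 of 26 were below 0 with a median of -0.09. The median turned to 0.08 without vehicle mouse 2 and to 0.01 without treated mouse 3, and was -0.27 without treated mouse 5. Ccn2, a matricellular factor induced by transforming growth factor beta, was at 29.8, 36.8, 32.5 and 50.5 CPM in treated mice, against 41, 54.2, 68.2, 65.9 and 72.9 CPM in vehicle mice. Treated mice 2 to 4 lay below all vehicle mice, and treated mouse 5 lay between vehicle mice 1 and 2. For Ccn2 the log2 fold change was -0.69 (95% interval -1.27 to -0.12, edgeR unadjusted p 0.0204) and ran from -0.87 to -0.60 when 1 mouse was left out. Tgfb1 itself had a log2 fold change of 0.13 (95% interval -0.44 to 0.69), its receptor Tgfbr2 of 0.04 (95% interval -0.39 to 0.47) and Timp3, a protease inhibitor, of 0.22 (95% interval -0.01 to 0.46). Acta2, the actin of smooth muscle and myofibroblasts, was at 13.9, 14.2, 16.7 and 52.4 CPM in treated mice, against 15.6, 20.8, 35.5, 48.5 and 32.6 CPM in vehicle mice. Treated mouse 5 held the highest value of all 9 and the other 3 treated mice were at or near the bottom, so the groups overlapped. The wider list of contractile smooth muscle genes had 10 of 11 below 0 with a median of -0.15, which was -0.77 without treated mouse 5 and -0.02, with 6 of 11 below 0, without treated mouse 3.

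**Figure D3:**
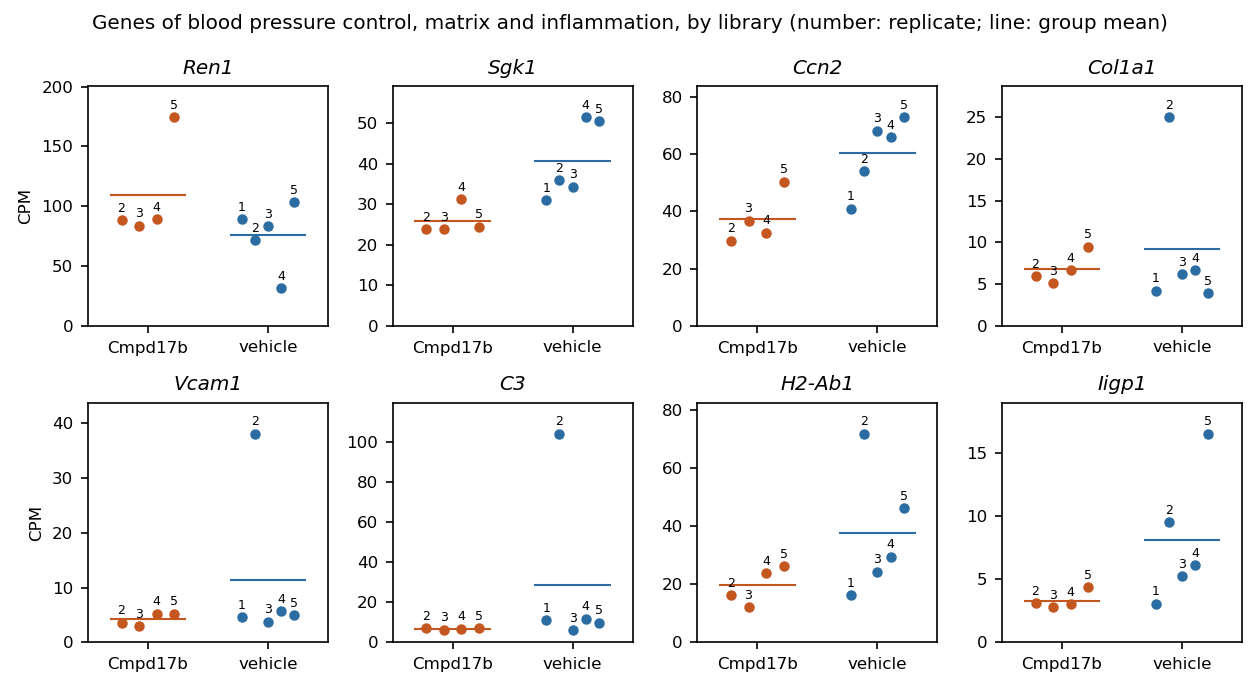
Level in CPM (y axis) of 8 genes of blood pressure control, matrix and inflammation in treated (left, orange) and vehicle (right, blue) BPH/2J mice, 1 panel per gene. Points are mice with their replicate number and lines are group means. Vehicle mouse 2 stands alone at the top for Col1a1, Vcam1, C3 and H2-Ab1, whereas treated mouse 5 does for Ren1.

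Interferon-stimulated genes had 9 of 29 tested members lower at an unadjusted p under 0.05, against 2.37% of all tested genes, and 0 called. All 29 were below 0, with a median log2 fold change of -0.46. The highest level was in vehicle mouse 5 for 19 of them and in vehicle mouse 4 for 9. Leaving out vehicle mouse 5 gave 25 of 29 below 0 and a median of -0.30, and across all single omissions the median ran from -0.60 to -0.30. Iigp1, an interferon-induced GTPase that attacks intracellular parasites, was at 3.08, 2.8, 3.005 and 4.34 CPM in treated mice and 3.06, 9.48, 5.26, 6.08 and 16.5 CPM in vehicle mice. Vehicle mouse 1 lay among the treated mice and the other 4 vehicle mice above them, with a log2 fold change of -1.29 (95% interval -2.12 to -0.45, edgeR unadjusted p 0.00457). Irf1, a transcription factor of the interferon response, was at 9.02, 5.23, 9.37 and 9.09 CPM in treated mice, against 9.2, 14.9, 7.24, 13 and 18.2 CPM in vehicle mice, with vehicle mice 1 and 3 inside the treated range. Ifi27, another interferon-induced gene, was at 18.7, 20.8, 21.5 and 26.8 CPM in treated mice, against 15.6, 23.4, 31.3, 42.6 and 26.4 CPM in vehicle mice. Its groups overlapped, with a log2 fold change of -0.35. The list's summed level was 165 to 205 CPM in treated mice and 149 to 340 CPM in vehicle mice.

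MHC class II genes, which present peptides to helper T cells, had 8 of 9 tested members below 0 and a median of -0.79. An unadjusted p under 0.05 was found for 5, all lower, against 2.37% of all tested genes, and 0 were called. Vehicle mouse 2 was the highest in 8 of the 9, and without it the median was -0.32, with 8 below 0. H2-Ab1, a class II chain, was at 16.3, 12.1, 23.9 and 26.2 CPM in treated mice, against 16.3, 71.9, 24.4, 29.5 and 46.2 CPM in vehicle mice. Cd74, the chaperone of class II molecules, was at 49.7, 34.8, 61.9 and 84 CPM in treated mice and 44.9, 187, 62.5, 67.7 and 89.4 CPM in vehicle mice. In both genes the ranges overlapped and vehicle mouse 2 was the highest by a wide margin. H2-DMa, which loads peptides, was at 2.78, 1.97, 3.47 and 3.3 CPM in treated mice, against 2.94, 8.71, 4.1, 4.03 and 6.19 CPM in vehicle mice, with a log2 fold change of -0.85 (95% interval -1.45 to -0.26) and -0.58 without vehicle mouse 2. H2-DMb2 had a log2 fold change of -1.48, and -0.69 without that mouse. MHC class I and peptide loading genes had 12 of 13 below 0, with a median of -0.31 that ran from -0.44 to -0.27 when 1 mouse was left out.

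Macrophage and dendritic cell markers were highest in the same mouse as the class II genes. All 18 tested members were below 0, with a median of -0.67, and 0 were called. An unadjusted p under 0.05 was found for 5 of the 18, all lower, against 2.37% of all tested genes. Vehicle mouse 2 was the highest in 16 of the 18. Without it 12 were below 0 and the median was -0.11. The summed level of the list was 65.8 to 81.0 CPM in treated mice and 67.1 to 225 CPM in vehicle mice, and none of its members was at 0 in all 9 libraries. Csf1r, the receptor that keeps macrophages alive, was at 36.9, 38.6, 35 and 48.1 CPM in treated mice and 38.7, 39.9, 48.9, 56.9 and 48.4 CPM in vehicle mice, with overlapping groups. Lyz2, a lysozyme of macrophages and neutrophils, was at 8.82, 6.1, 9.87 and 3.71 CPM in treated mice, against 6.72, 81.1, 4.62, 15.5 and 5.93 CPM in vehicle mice, and Ms4a7, a marker of resident macrophages, at 0.0671, 0.0758, 0.156 and 0 CPM in treated mice and 0, 1.5, 0.336, 0.113 and 0.173 CPM in vehicle mice. In both, vehicle mouse 2 was several times above every other mouse. Whether macrophage content had a part in the class II, complement, matrix or injury values was not tested.

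Complement genes had 17 of 19 tested members below 0 and a median of -0.31, which ran from -0.56 without treated mouse 5 to -0.05 without vehicle mouse 2. C3, the central complement protein, was at 7.04, 6.33, 6.79 and 7.07 CPM in treated mice, against 11.1, 104, 6.15, 11.9 and 9.82 CPM in vehicle mice. Apart from vehicle mouse 2 all values lay between 6.15 and 11.9 CPM, and the log2 fold change of -2.08 (95% interval -3.56 to -0.59) became -0.52 without that mouse. Cfb, a factor of the alternative pathway, had a log2 fold change of 0.04 (95% interval -0.21 to 0.29). Cfd, the protease that starts the alternative pathway and a product of fat cells, was at 0, 1.06, 0.663 and 0.579 CPM in treated mice and 0.484, 2.32, 7.65, 35 and 2.73 CPM in vehicle mice, highest in vehicle mouse 4. Without that mouse its log2 fold change was -2.52 rather than -4.09.

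Of 22 tested cytokine, chemokine and adhesion genes, 19 were below 0 and the median was -0.40. Among them 5 were lower at an unadjusted p under 0.05, against 2.37% of all tested genes. Vehicle mouse 2 was the highest in 12 of the 22, and the median was -0.24 without it. Cxcl10, a chemokine induced by interferon that draws T cells, was at 0.771, 0.682, 0.858 and 0.869 CPM in treated mice, against 1.21, 2.79, 0.97, 1.41 and 1.77 CPM in vehicle mice. The groups did not overlap, though treated mouse 5 and vehicle mouse 3 were close, and the log2 fold change was -1.04 (95% interval -1.71 to -0.36, edgeR unadjusted p 0.00466). Vcam1, an adhesion molecule of activated endothelium and injured tubules, was at 3.59, 2.99, 5.27 and 5.21 CPM in treated mice and 4.57, 38, 3.8, 5.74 and 5.02 CPM in vehicle mice. Vehicle mouse 2 alone was high, and without it the log2 fold change was -0.17 rather than -1.43. Icam1, another adhesion molecule, was at 12.5, 11.5, 12.6 and 20.4 CPM in treated mice, against 15.1, 25.5, 17.8, 17.8 and 17.6 CPM in vehicle mice, with treated mice 2 to 4 below all vehicle mice and treated mouse 5 above all but vehicle mouse 2. Ccl2, a monocyte chemokine, was at 0.134, 0.568, 0.429 and 0.29 CPM in treated mice and 0.182, 2.9, 0.336, 0.704 and 0.26 CPM in vehicle mice, again highest in vehicle mouse 2. Spp1, which encodes osteopontin, was at 292, 323, 340.04 and 153 CPM in treated mice, against 276, 714, 270.1, 590.4 and 218 CPM in vehicle mice, highest in vehicle mice 2 and 4. Cxcl12 had a log2 fold change of -0.13 and Il1b of 0.26, with intervals on both sides of 0. Tnf averaged 0.13 ± 0.0794 CPM in treated mice and 0.15 ± 0.124 CPM in vehicle mice (SD, n = 4 and 5), and Il6 was at 0 in 3 of 4 treated and 4 of 5 vehicle mice. Neither passed the filter on low counts.

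NF-kappaB and immediate early genes had 22 of 30 tested members below 0, a median of -0.32 and again 0 called. An unadjusted p under 0.05 was found for 8 members, all lower, against 2.37% of all tested genes. In 2 members the groups did not overlap, with treated mice below vehicle mice, as in 0.468% of all tested genes. Vehicle mouse 2 was the highest in 13 of the 30, and without it 19 were below 0 and the median was -0.17. Ier3, described above, was 1 of the 2, and the other was Nr4a2, a nuclear receptor named after its values had been seen, at 0.536, 0.682, 0.624 and 0.637 CPM in treated mice, against 0.756, 0.822, 1.34, 1.91 and 1.08 CPM in vehicle mice. Atf3, a stress-induced transcription factor, was at 0.838, 0.493, 1.33 and 0.463 CPM in treated mice and 0.666, 5.84, 1.6, 2.22 and 3.33 CPM in vehicle mice. Vehicle mouse 1 lay inside the treated range, the other 4 vehicle mice above it, and the log2 fold change was -1.79 (95% interval -2.81 to -0.77, edgeR unadjusted p 0.00169), from -2.15 to -1.30 when 1 mouse was left out. Dusp1, a phosphatase that limits MAP kinase signalling, was at 48, 42.5, 41.3 and 38.8 CPM in treated mice, against 25.8, 32.9, 35.2, 66.8 and 86.6 CPM in vehicle mice. The treated values sat within 38.8 to 48.0 CPM, and the vehicle values spread to both sides of them. Jund, the member with the most counts, had a log2 fold change of -0.12 (95% interval -0.40 to 0.16).

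Tubular injury genes had 21 of 22 tested members below 0 and a median of -0.38. Lower at an unadjusted p under 0.05 were 5 of the 22, against 2.37% of all tested genes. Vehicle mouse 2 held the highest level of 13 members and vehicle mouse 4 of 6, and the median was -0.18 without vehicle mouse 2 and -0.26 without vehicle mouse 4. Havcr1, which encodes the injury marker KIM-1, was at 27, 27.9, 29.7 and 18.2 CPM in treated mice and 24.5, 64.8, 25.4, 44.7 and 23.5 CPM in vehicle mice. Lcn2, which encodes the injury marker NGAL and is also a neutrophil gene, was at 0.872, 1.44, 1.25 and 1.51 CPM in treated mice, against 0.756, 11.5, 1.04, 3.21 and 1.56 CPM in vehicle mice. For both, vehicle mice 2 and 4 were high and the other 3 vehicle mice lay within or close to the treated range. Lcn2 had a log2 fold change of -1.53 (95% interval -2.83 to -0.22) and -0.39 without vehicle mouse 2. Igfbp7, the member with the most counts and a marker of cell cycle arrest in urine, had a log2 fold change of -0.05 (95% interval -0.30 to 0.19).

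Heat shock and unfolded protein response genes had 16 of 20 below 0 with a median of -0.15, and of -0.09 without vehicle mouse 5. Hspa1a and Hspa1b, inducible HSP70 chaperones, were highest in vehicle mouse 4. Hspa1b was at 13.9, 16.2, 11.5 and 7.76 CPM in treated mice and 17.2, 19.9, 11.5, 55.5 and 17.5 CPM in vehicle mice, and Hspa1a at 8.99, 10.1, 9.29 and 7.36 CPM in treated mice, against 11.6, 10.1, 9.88, 24.4 and 13.1 CPM in vehicle mice. The coding sequences of these 2 genes are nearly identical, so reads could have been split between them, and each value is uncertain. The log2 fold change of Hspa1b was -0.97, and -0.42 without vehicle mouse 4. Hspa8, the constitutive chaperone, and Calr, an endoplasmic reticulum chaperone, had log2 fold changes of -0.15 (95% interval -0.52 to 0.22) and -0.11 (95% interval -0.43 to 0.20).

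Metabolic lists were close to 0 and had no member at an unadjusted p under 0.05: the median was 0.02 for 23 nuclear-encoded oxidative phosphorylation genes, 0.06 for 23 fatty acid oxidation genes, -0.02 for 20 cholesterol synthesis genes, -0.01 for 18 hypoxia and glycolysis genes and -0.02 for 21 antioxidant genes. Transcripts encoded by the mitochondrial genome had a median of 0.10, with 10 of 13 above 0, and treated mouse 5 was the highest in 9 of the 13. COX1, a subunit of cytochrome oxidase, was at 43170.5, 52753, 46449.5 and 76534 CPM in treated mice and 47156, 38481, 49149, 39556 and 53842 CPM in vehicle mice. COX3, another subunit, was at 18823, 29743, 21900.2 and 48690.0 CPM in treated mice, against 20326, 20019, 37984, 25067 and 35985 CPM in vehicle mice. Without treated mouse 5 the median of the list was -0.09, and the difference in the mitochondrial share of counts, 20.01% ± 4.54 in treated and 18.9% ± 2.42 in vehicle mice (SD, n = 4 and 5), had an exact permutation p of 0.683. ND2, a subunit of complex I, had a log2 fold change of 0.25 (95% interval -0.09 to 0.59).

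Circadian clock genes had a median of -0.04, with 11 of 19 below 0, and of -0.13 to 0.02 when 1 mouse was left out. Per1 and Per2, which had the 2 smallest p of the list, were nevertheless below all vehicle mice in every treated mouse. They were the only 2 of the 19 with groups apart, against 0.689% of all tested genes. The list's other period gene, Per3, overlapped. Per2, the partner of Per1 in repressing the clock, was at 14.6, 12, 16.2 and 15.4 CPM in treated mice and 25.2, 17.3, 21.3, 20.02 and 33.5 CPM in vehicle mice, and its log2 fold change was -0.69 (95% interval -1.15 to -0.22, edgeR unadjusted p 0.0059). Tef and Usp2, the clock-controlled members with the most counts, had log2 fold changes of -0.03 (95% interval -0.31 to 0.26) and -0.22 (95% interval -0.53 to 0.09). The hour at which kidneys were taken is not given in the sources used here, and clock genes vary with it. Its part in these values was not tested.

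Medians of the renal cell type lists ran from -0.13 to 0.16, and 0 members were called. Distal convoluted tubule genes had 10 of 11 above 0, against 48.6% of all tested genes. Their median ran from 0.02 to 0.25 when 1 mouse was left out. Thick ascending limb genes had 9 of 11 below 0, against 51.4% of all tested genes. Proximal tubule genes had 19 of 22 above 0 with a median of 0.13, which ran from 0.05 to 0.20 when 1 mouse was left out. Slc6a19, an amino acid transporter, was at 503, 416, 463 and 469 CPM in treated mice, against 366, 362, 279.8, 209 and 455 CPM in vehicle mice. Vehicle mouse 5 lay inside the treated range and the other 4 vehicle mice below it, with a log2 fold change of 0.47 (95% interval 0.10 to 0.83). Gatm, an enzyme of creatine synthesis, was at 850.1, 782, 732 and 673 CPM in treated mice and 617, 724, 635, 386 and 730.2 CPM in vehicle mice, with overlapping ranges. Kap, an androgen-regulated kidney protein, averaged 40609 ± 14776 CPM in treated mice, against 40166 ± 17535 CPM in vehicle mice (SD, n = 4 and 5) and had a log2 fold change of 0.02 (95% interval -0.63 to 0.66). Slc27a2, a fatty acid transporter, was at -0.04 (95% interval -0.30 to 0.22). The median was 0.04 for 16 podocyte genes, -0.02 for 18 endothelial genes, 0.0036 for 12 pericyte and mesangial genes, -0.12 for 10 fibroblast genes, 0.16 for 11 distal convoluted tubule genes, -0.13 for 11 thick ascending limb and for 11 collecting duct principal cell genes, and 0.11 for 12 intercalated cell genes. When 1 mouse was left out the median changed sign in 22 of the 44 lists with at least 3 tested members, among them the podocyte, endothelial, pericyte, thick ascending limb, principal cell and intercalated cell lists and all 5 metabolic lists above. Umod, the uromodulin gene of the thick ascending limb, was at 2279.7, 1746, 2427 and 941 CPM in treated mice and 2434, 2084, 1209, 2655 and 1357 CPM in vehicle mice, lowest in treated mouse 5 and with wide overlap. Hdc, which encodes histidine decarboxylase, averaged 455 ± 49.6 CPM in treated mice, against 421 ± 117 CPM in vehicle mice (SD, n = 4 and 5).

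Red blood cell and neutrophil genes had medians above 0. Red blood cell genes were above 0 in all 8 tested members, with a median of 0.45 and 0 called. Higher at an unadjusted p under 0.05 were 3 of the 8, against 1.05% of all tested genes. The median ran from 0.17 without treated mouse 5 to 0.80 without vehicle mouse 3, with up to 3 of the 8 below 0 when 1 mouse was left out. Hbb-bs, a beta globin, was at 515, 509, 611 and 559 CPM in treated mice and 196, 375, 543, 423 and 333 CPM in vehicle mice, with only vehicle mouse 3 inside the treated range. Alas2, the first enzyme of haem synthesis in erythroid cells, was at 9.25, 6.25, 10.2 and 9.91 CPM in treated mice, against 3.66, 5.16, 7.8, 4.79 and 4.85 CPM in vehicle mice, again with vehicle mouse 3 inside the treated range. Hba-a1 was at 316, 364, 406 and 689.8 CPM in treated mice and 139, 252, 688, 263 and 269 CPM in vehicle mice, where vehicle mouse 3 nearly equalled treated mouse 5. Globin genes have close copies, so their single values are uncertain. The list's sum was 1177 to 1802 CPM in treated mice, against 513 to 1784 CPM in vehicle mice.

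Of 16 neutrophil genes only 6 passed the filter, and 5 of these were above 0. S100a8, which with S100a9 forms the calprotectin dimer of neutrophils, was at 1.24, 2.2, 1.6 and 1.45 CPM in treated mice and 0.182, 0.293, 0.597, 0.422 and 0.952 CPM in vehicle mice. S100a9 was at 2.31, 2.39, 2.77 and 4.23 CPM in treated mice, against 0.484, 0.469, 1.23, 1.55 and 1.99 CPM in vehicle mice. For both genes all 4 treated mice were above all 5 vehicle mice, which held in 0.222% of all tested genes. Log2 fold changes were 1.75 for S100a8 (95% interval 0.81 to 2.69, edgeR unadjusted p 0.00101) and 1.36 for S100a9 (95% interval 0.52 to 2.19, edgeR unadjusted p 0.00308), and neither was called. The mean log2 CPM of both was under 1, so they are not among the 12 genes above. Lcn2, another member, had its highest values in vehicle mice, and the list's sum was 8.45 to 11.8 CPM in treated mice and 3.15 to 15.1 CPM in vehicle mice. Stfa2l1 was at 0 in all 9 libraries.

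Markers of tissue beside the kidney differed with single vehicle mice. Urothelium genes were below 0 in all 12 tested members with a median of -2.82, and fat cell genes in all 13 with a median of -2.90. Vehicle mouse 4 was the highest in 11 of the 12 and in 12 of the 13, and without it the medians were -0.88 and -1.06. Upk3a, a plaque protein of bladder and pelvic lining, was at 0.0671, 0.758, 0.234 and 0.348 CPM in treated mice, against 0.787, 0.822, 1.31, 11.4 and 0.26 CPM in vehicle mice. Psca and Sprr1a showed the same pattern, at 14.2 and 20.02 CPM in vehicle mouse 4 and at most 2.24 and 1.85 CPM in the other 8 mice. Krt7, which collecting ducts express as well, had a log2 fold change of -0.26 (95% interval -0.75 to 0.22). Fabp4, a fatty acid carrier of fat and endothelial cells, was at 37.4, 42.1, 48.1 and 54.3 CPM in treated mice and 33.3, 57.7, 65, 186 and 51.7 CPM in vehicle mice. Thrsp, a regulator of fat synthesis, was at 0.939, 0.72, 1.01 and 0.579 CPM in treated mice, against 1.33, 1.44, 3.24, 21.9 and 1.99 CPM in vehicle mice, apart in range but with vehicle mouse 4 several times above the rest. Lpl, lipoprotein lipase, had a log2 fold change of -0.06 (95% interval -0.40 to 0.28). The sum of the urothelium list was 54.3 to 109 CPM in treated mice and 61.2 to 248 CPM in vehicle mice, that of the fat cell list 495 to 665 CPM in treated mice, against 477 to 843 CPM in vehicle mice, and no member of either was at 0 in all 9 libraries. Liver genes had 10 of 11 below 0, with vehicle mouse 1 the highest in 8. The part of tissue taken along with the kidney in the values of Cfd, Krt19, Gem, Adrb3 and the HSP70 genes was not tested.

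**Figure D4:**
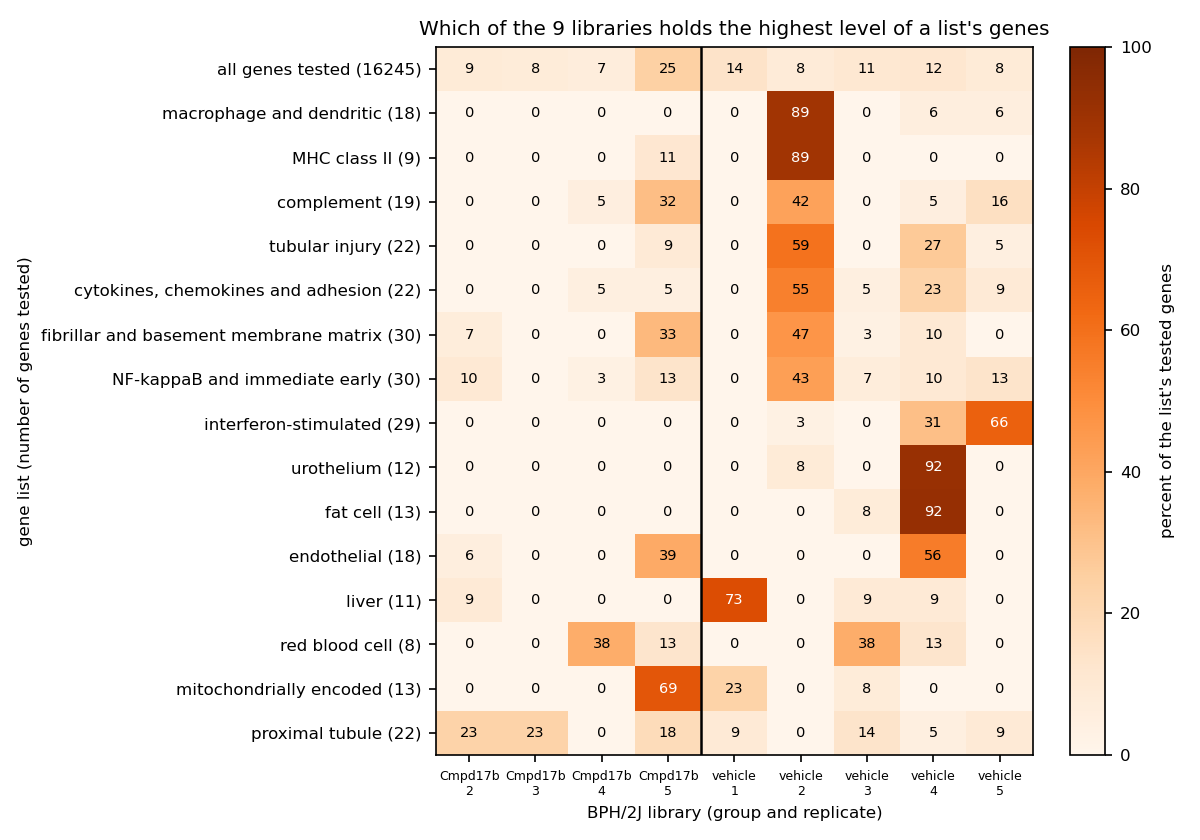
For each gene list (rows, number of tested genes in brackets), the percent of its genes whose highest level fell in each of the 9 BPH/2J libraries (columns, treated left of the line, vehicle right). Vehicle mouse 2 holds most macrophage and MHC class II genes, vehicle mouse 4 most urothelium and fat cell genes, and vehicle mouse 5 most interferon-stimulated genes.

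Genes set aside because of the left-out library also differed between the groups. Of the 241, 65 were above the vehicle range in every treated mouse and 0 below it, and 203 had the higher mean in treated mice. Among the 16245 tested genes the treated mice were all above it in 0.222% and all below it in 0.468%. The rule for the 241 used the left-out library and the other 3 groups but not treated mice 2 to 5. It capped the vehicle values relative to the left-out library and set no cap on treated mice 2 to 5. The counts among the 241 therefore cannot serve as a test. Mb, which encodes myoglobin, was at 19.8, 22.1, 20.3 and 28.4 CPM in treated mice and 0.0605, 0.117, 0.298, 0.563 and 0.692 CPM in vehicle mice, and Actc1, the cardiac actin, at 14.1, 14.8, 13.8 and 18 CPM in treated mice, against 0.0605, 0, 0, 0.253 and 0.13 CPM in vehicle mice. Nppa, which encodes atrial natriuretic peptide, was at 1.04, 1.25, 0.741 and 0.695 CPM in treated mice and 0, 0, 0.0746, 0.113 and 0 CPM in vehicle mice. In these 3 genes all 4 treated mice were above all vehicle mice. Over the 26 set-aside genes at 1000 CPM or more in the left-out library, the median level as a percent of that library was 0.208, 0.227, 0.246 and 0.339 in treated mice 2 to 5, against 0.0121, 0.0274, 0.0410, 0.0404 and 0.0450 in vehicle mice 1 to 5. The ranges were apart in 17 of these 26 genes and overlapped in the other 9. Fabp3, which kidney expresses as well, was 1 of the 9, at 74.3, 94.9, 98.2 and 91.9 CPM in treated mice, against 61.7, 70.04, 87.6, 129.6 and 88.4 CPM in vehicle mice. The 30 heart muscle genes summed to 250 to 353 CPM in treated mice, 77.3 to 153 CPM in vehicle mice and 91202 CPM in the left-out library. With the set-aside genes kept in the table edgeR called 27 genes, all higher in treated mice and all among the 241. Among the 27, Nppa and Lmod2 averaged 0.932 and 1.08 CPM in treated BPH/2J mice. Their means in the other 3 groups were at most 0.0374 and 0.0202 CPM. Such genes passed the filter on low counts only through treated mice, and the 27 calls are not read as a test.

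The same treatment in normotensive BPN/3J mice, which share no library with this comparison, also gave 0 calls (0% of 16245), with 410 genes (2.52%) at an unadjusted p under 0.05, or 240 to 582 without 1 BPN/3J mouse, 291 (1.79%) with groups that did not overlap, 0 calls by limma-voom and 6 by DESeq2. The difference between the strains' responses, tested as an interaction in edgeR, gave 0 calls as well (0%), with 488 genes (3%) at an unadjusted p under 0.05, 958 without BPH/2J treated mouse 5, and 0 calls by DESeq2 and limma-voom. No gene was therefore shown to respond differently in the hypertensive strain. Medians of most immune lists had opposite signs in the strains: -0.46 in BPH/2J against 0.10 in BPN/3J for interferon-stimulated genes, -0.79 against 0.33 for MHC class II, -0.67 against 0.33 for macrophage and dendritic cell markers, -0.31 against 0.28 for complement, -0.31 against 0.23 for MHC class I and peptide loading and -0.40 against 0.22 for cytokines, chemokines and adhesion. They had the same sign for NF-kappaB and immediate early genes, at -0.32 in BPH/2J and -0.06 in BPN/3J, and for neutrophil genes, at 1.22 in BPH/2J and 0.17 in BPN/3J. Over all tested genes the median was -0.01 in BPH/2J and -0.0038 in BPN/3J. Matrix genes had medians of -0.13 in BPH/2J and 0.36 in BPN/3J, and fat cell genes of -2.90 in BPH/2J and 1.56 in BPN/3J. In BPH/2J most of the list medians came closer to 0 without the single vehicle mice named above. MHC class I and peptide loading genes came closest to 0 without treated mouse 2, at -0.27. Neutrophil genes did so without treated mouse 5, at 0.78. No test was made of a list's difference between strains.

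In single genes the values of the strains can be set side by side. Iigp1 averaged 9.04 ± 4.35 CPM in treated BPN/3J mice (n = 5), against 6.46 ± 1.38 CPM in vehicle BPN/3J mice (n = 4), with a log2 fold change of 0.49 (95% interval -0.31 to 1.28), and its interaction had an edgeR unadjusted p of 0.0046. Sgk1 had a log2 fold change of 0.16 in BPN/3J (interaction, edgeR unadjusted p 0.0117), Ccn2 of 0.37 (p 0.0126) and Atf3 of 0.05 (p 0.014). Zfp7 was at -0.12 in BPN/3J (p 0.0144), Ier3 at -0.12 (p 0.0187), Per1 at -0.13 (p 0.036) and S100a8 at 0.10 (p 0.0178). None of these interactions passed adjustment. The genes were named at least partly by a small p in BPH/2J, and the interaction contains that same BPH/2J difference. Their unadjusted interaction p therefore cannot serve as a test. Per2 was lower on average in treated mice of both strains, with a log2 fold change of -0.91 in BPN/3J (95% interval -1.37 to -0.46) against -0.69 in BPH/2J and an edgeR unadjusted interaction p of 0.472, which does not show that the responses were equal. Lrat, at -0.43 in BPN/3J, was the only gene of the 12 whose groups were apart in both strains, with treated mice below vehicle mice.

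**Figure D5:**
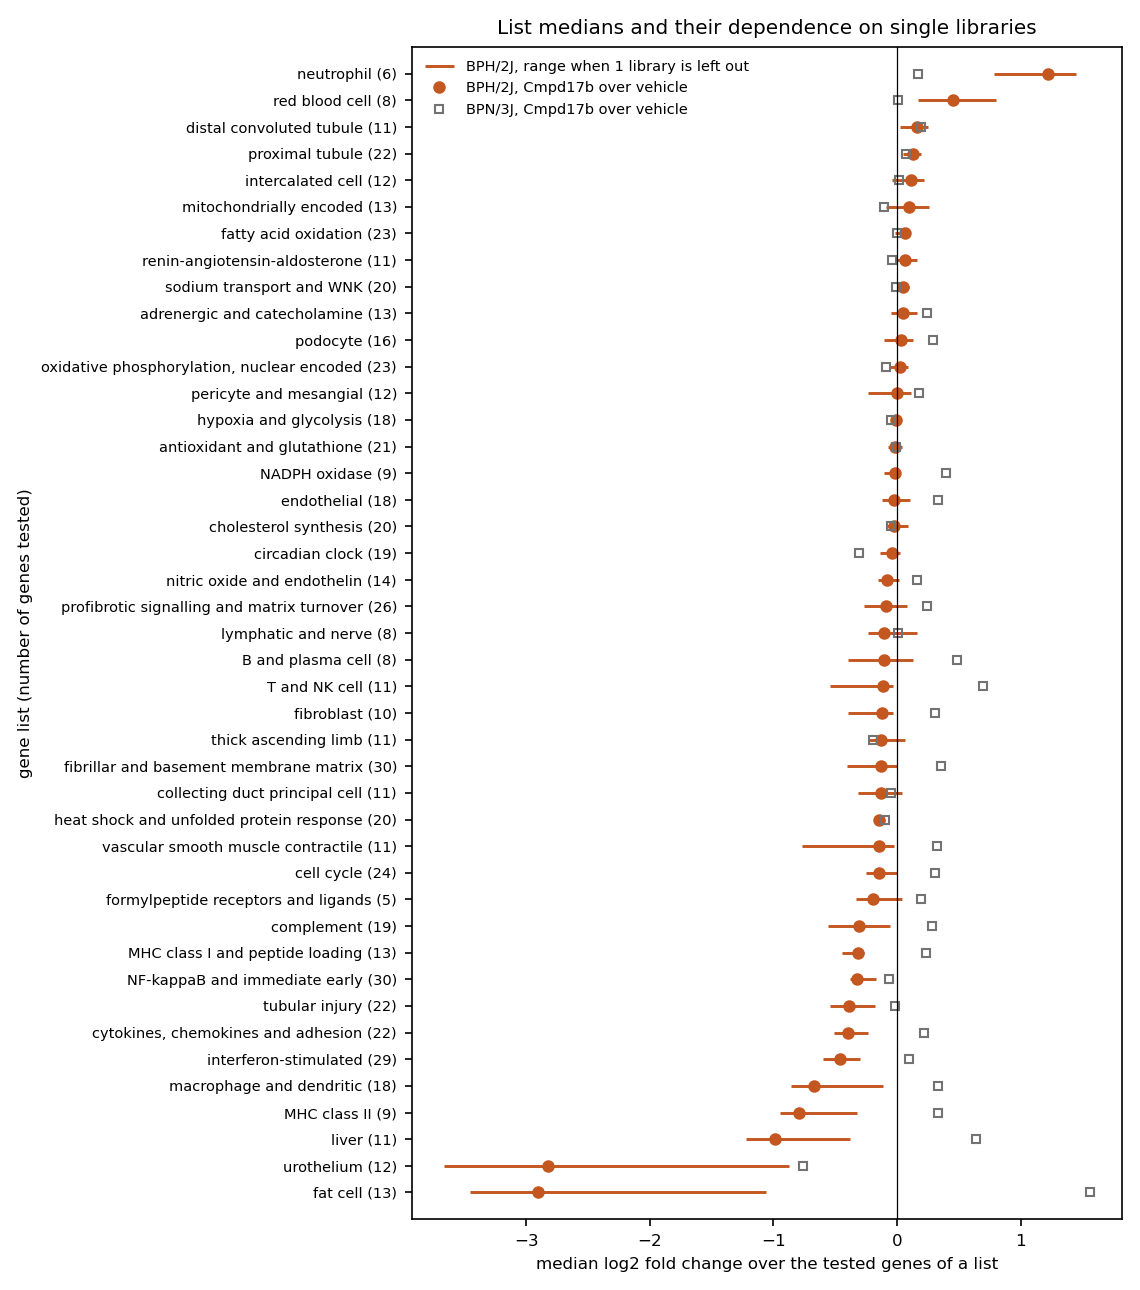
Median log2 fold change over the tested genes of each of 43 lists (y axis) on a log2 scale (x axis). Orange points are BPH/2J with lines for the range when each of the 9 mice is left out in turn, and open grey squares are BPN/3J. In BPH/2J 30 of the 43 medians lie below 0, and the widest ranges are those of the fat cell and urothelium lists.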

How the data were processed

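Polyadenylated kidney RNA was sequenced, 1 library per mouse. The deposited table holds estimated counts per gene made by the authors, raw and not normalized, for 19 libraries. Per the submitters' processing notes, Trim Galore 0.6.7, STAR 2.7.9a and the build mm39 (GRCm39) were used, whereas the sources used here do not give the tool or annotation behind the estimated counts. Between 4.63% and 10.1% of the values of a library are not whole. Genes are named by symbol as in the table, without coordinates.

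Estimated counts were rounded. Genes at 20 CPM or more in the library labelled BPH/2J Cmpd17b replicate 1 and at least 20 times as high as in any library of the 3 other groups (241 of 40413) were taken out first, since that library held a heart profile, and the library was left out. The 18 other libraries entered 1 fit in edgeR 4.0.16 under R 4.3.3 with a mean per group, TMM factors, filterByExpr (minimum count 10, minimum total 15), a robust quasi-likelihood fit and Benjamini-Hochberg adjustment over all 16245 genes tested. Calls were made where the adjusted p was under 0.05. The biological coefficient of variation was 0.25. Unadjusted p-values are from edgeR's quasi-likelihood test unless another tool is named. Fold changes are Cmpd17b over vehicle, intervals are 95% intervals of the fit, and CPM are on the TMM scale. CPM of the left-out library are not scaled. CPM compare a gene between mice, not genes with each other. Nothing beyond the label of 1 mouse per library describes the replicates.

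Named genes were the 12 with the smallest p among genes that have an established symbol, not a predicted locus name, and a log2 CPM averaging 1 or more, 27 single genes, and in described lists the 2 tested members with the highest mean and the 2 with the smallest p. Some genes that these rules name are not reported here. The members, the 46 lists and these rules were chosen with earlier results of these data known. The symbols of mitochondrially encoded genes were matched to the table's spelling after the table had been seen. Lists are described by counts and medians without a test. Library measures were compared with exact two-sided permutation tests (scipy 1.17.1). Alternatives were DESeq2 1.42.0, limma-voom (limma 3.58.1), DESeq2 size factors in edgeR, other filters, a non-robust fit and the compared groups alone. Others were the animal number in the model, 1 surrogate variable (sva 3.50.0), set-aside genes kept, all 19 libraries, and each library left out in turn. The last was a cutoff at an absolute log2 fold change of 1 on genes called in the main fit, not a separate test. The count of genes detected per library and the count of lists with a median below 0 were added after seeing the data. Scripts were tested on simulated counts. Figures used matplotlib 3.10.9 under Python 3.11.15.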

Additional observations from a re-analysis of the deposited data

Results flagged for a closer look

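In 216 sets of values of 1 group, for named genes, summed gene lists and library measures, the highest or lowest mouse was far from the others of its group in 36. The cutoffs would flag about 1 set in 20 if values were normally distributed, which CPM of low genes need not be. Genes were also named partly by small p, and sets that share a mouse are not independent. The 36 are therefore not set against that rate.

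Vehicle mouse 2 accounted for the most. It was high in the inflammation and matrix genes Vcam1 (38.0 CPM), C3 (104 CPM), Lyz2 (81.1 CPM), H2-DMb2 (4.72 CPM), Ms4a7 (1.5 CPM), Lcn2 (11.5 CPM), Edn1 (2.46 CPM), Ccl2 (2.90 CPM), Icam1 (25.5 CPM), Cybb (6.95 CPM), Col1a1 (25 CPM) and Col3a1 (46.5 CPM), and its summed macrophage and dendritic genes were at 225 CPM where the other vehicle mice lay between 67.1 and 105 CPM. Vehicle mouse 4 was high in urothelium, fat cell and HSP70 genes, at 14.1 CPM for Krt19, 20.02 CPM for Sprr1a, 14.2 CPM for Psca, 11.4 CPM for Upk3a, 186 CPM for Fabp4, 21.9 CPM for Thrsp, 35.0 CPM for Cfd, 2.73 CPM for Adrb3, 24.4 CPM for Hspa1a and 55.5 CPM for Hspa1b. Vehicle mouse 3 was high in Hba-a1 (688 CPM). Vehicle mouse 5 had a total count of 25840891, below the 31475339 to 33616451 of the other vehicle mice.

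Among treated mice, mouse 5 was flagged most often. It was high in Ren1 (174 CPM), Acta2 (52.4 CPM), Col5a2 (31.5 CPM), Icam1 (20.4 CPM), Nos3 (7.94 CPM), Tgtp1 (3.65 CPM) and Alox5 (0.753 CPM). Treated mouse 3 was high in Psca (1.10 CPM) and Adrb3 (0.0379 CPM) and low in Irf1 (5.23 CPM), and treated mouse 4 was high in Sgk1 (31.2 CPM).

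Signal outside the tested genes came from heart muscle transcripts. The 30 heart muscle genes summed to 91202 CPM before TMM scaling in the library labelled BPH/2J Cmpd17b replicate 1, and their median sum over the 4 treated BPH/2J mice of the comparison was 281.65 CPM, against 77.3 to 153 CPM in vehicle mice.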

How the results depend on the processing

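Across the alternatives between 0 and 27 genes were called in BPH/2J. All but DESeq2 (1 call) and the table with set-aside genes kept (27 calls) gave 0, including limma-voom, other filters and scalings, all 19 libraries, and each refit without 1 library. In BPN/3J DESeq2 called 6, and the interaction had 5 calls with set-aside genes kept. For the 95 named genes followed through the settings, the smallest adjusted p in any setting was 0.0684, and none passed the threshold. Sagsin1 and the set-aside genes were not among these 95. The number of 43 lists with a median below 0 was 30 in DESeq2 and with set-aside genes kept, 24 with all 19 libraries, and 25 to 33 when 1 library was left out. Genes at an unadjusted p under 0.05 in BPH/2J numbered 220 with only the compared groups, 1057 with 1 surrogate variable, 1234 with all 19 libraries and set-aside genes out, 1402 with them kept, 1555 with no filter, 1287 without treated mouse 5 and 457 to 831 without any other 1 mouse, against 555. No paired analysis was possible because animal numbers do not repeat between groups and replicate numbers follow accession order only.

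The difference in total count, treated minus vehicle, ran from -6022299 to -3254411 when 1 library was left out, and its exact permutation p was above 0.05 in 8 of the 9 cases. The difference in mitochondrial share ran from -1.06 to 2.27 percentage points and in the share of the 10 most abundant genes from -1.29 to 3.25, both negative without treated mouse 5, and in genes detected from -794 to 1148, negative without treated mouse 4. Adding the library with the heart profile turned the sign of 28 of 95 named genes (log2 fold changes with set-aside genes out and kept): Kap (-0.31 and -0.31), Cfb (-0.28 and -0.28), Hsd11b2 (-0.26 and -0.26), Hdc (-0.21 and -0.21), Ace (-0.20 and -0.20), Timp3 (-0.066 and -0.069), Tgfbr2 (-0.032 and -0.038), Gatm (-0.022 and -0.025), Nox4 (-0.020 and -0.023), Dusp1 (0.033 and 0.024), Edn1 (0.13 and 0.11), Cybb (0.30 and 0.29), Cxcl12 (0.30 and 0.29), Ms4a7 (0.31 and 0.29), Col4a1 (0.39 and 0.38), Anxa1 (0.44 and 0.43), Stk39 (0.54 and 0.53), Acta2 (0.56 and 0.55), Sparc (0.63 and 0.62), Lyz2 (0.70 and 0.68), Nos3 (0.86 and 0.84), Col1a1 (0.996 and 0.98), Thrsp (1.25 and 1.23), Fabp4 (1.29 and 1.27), Col3a1 (1.46 and 1.44), Iigp1 (1.51 and 1.49), Lpl (1.73 and 1.71), Dcn (2.39 and 2.37). Single settings turned Fxyd2 (0.00084 with 1 CPM in 4 libraries, 0.015 with the surrogate variable, 0.032 with the animal number), Fn1 (-0.029 with the surrogate variable, -0.00035 with no filter), Tgfb1 (-0.031 in limma-voom) and Kap (-0.0087 with no filter). Leaving out 1 library turned the sign of 20 named genes, all with intervals on both sides of 0 in the full comparison: Ace (-0.035 to 0.19), Anxa1 (-0.33 to 0.046), COX3 (-0.25 to 0.26), Cfb (-0.050 to 0.11), Col1a1 (-0.63 to 0.37), Col3a1 (-0.83 to 0.11), Cxcl12 (-0.23 to 0.10), Cybb (-0.73 to 0.075), Dusp1 (-0.37 to 0.086), Fn1 (-0.32 to 0.32), Fxyd2 (-0.28 to 0.21), Hsd11b2 (-0.062 to 0.13), Igfbp7 (-0.13 to 0.047), Kap (-0.16 to 0.29), Lpl (-0.17 to 0.11), Slc27a2 (-0.14 to 0.055), Tef (-0.15 to 0.051), Tgfb1 (-0.34 to 0.32), Tgfbr2 (-0.062 to 0.23), Umod (-0.23 to 0.15). The cause of these shifts was not tested. Low genes such as Fpr1 and Fpr2 were not testable at this depth.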

Other observations

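Treated mouse 4 held a count for 24796 genes, against 18969 to 20391 in the other 3 treated mice and 19747 to 21379 in vehicle mice. It was the only one of the 9 libraries with a count in 2441 genes, where each of the other 8 was alone in 160 to 530. Fam81a, named after its values had been seen, was at 17.6, 11.8, 197 and 5.68 CPM in treated mice 2 to 5 and at 10.1 to 20.05 CPM in vehicle mice, so treated mouse 4 alone was high.

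Lists not described above had these median log2 fold changes in BPH/2J: -0.15 for 24 cell cycle genes, -0.11 for 11 T and NK cell genes, -0.10 for 8 B and plasma cell genes and -0.10 for 8 lymphatic and nerve genes. When 1 mouse was left out these medians ran from -0.25 to -0.0037 for cell cycle, -0.54 to -0.03 for T and NK cell, -0.40 to 0.13 for B and plasma cell and -0.24 to 0.16 for lymphatic and nerve genes. Liver genes had a median of -0.99, and -0.38 without vehicle mouse 1. Of the adrenal list 3 of 12 members were tested, with a median of -0.11, and Cyp11b1 and Cyp11b2, enzymes of corticosteroid synthesis that mark the adrenal cortex, were at 0 in all 9 libraries. Of the skeletal muscle list 2 of 12 members were tested and 3 were among the set-aside genes.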
